A study of Mus musculus with 12 samples.

Results

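The genes described here are 40 genes of the cell cycle and DNA replication, taken from a list of names written for this work, out of 20021 gene symbols that the array's probes could be matched to. They were split by role into 27 mitotic genes, which act from the entry into mitosis to the division of the cell, and 13 replication genes, which act in the entry into S phase, at the replication fork or in making DNA precursors. Each gene was read from its brightest probe. To be tested, a probe had to exceed background clearly on 3 or more of the 12 arrays. This left 38 of the 40 genes, 26 mitotic and 12 replication. Aurkb, the kinase of the chromosomal passenger complex, and Ccne2, a cyclin of the S-phase entry, were not well above background on any array and are given no value. The 40 genes are few of the 33026 genes and unnamed transcripts on the array, of which 25321 were tested.

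The samples were single-colour microarrays of RNA from a piece of mouse left ventricle, strain C57/Bl6. Mice were wild type or carried a transgene that overexpresses CnAb1, a splice variant of the calcineurin A beta phosphatase. They had either trans aortic banding (TAC), in which a band around the aorta makes the ventricle pump against a higher pressure, or a sham operation. Each of the 4 combinations of genotype and operation had 3 arrays, all from tissue collected 21 days after surgery by the labels' source names and protocol. The promoter and cell type that drive the transgene, the number of founder lines, sex and age are not given in the sources used here. Nothing in the labels says that the 3 arrays of a group are separate animals, so the p-values measure only the spread between these arrays.

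Most cells of the adult heart are out of the cell cycle. Cardiomyocytes of adult mice rarely divide, while fibroblasts, endothelial cells and immune cells can re-enter the cycle after injury or load. Replication genes are switched on at the G1 to S transition, largely by E2F factors, and mitotic genes later, in G2 and M, by the B-MYB and FOXM1 programme acting through CHR elements and NF-Y boxes. In RNA from a piece of tissue, a change in the number of cycling cells and a change in transcript per cycling cell cannot be told apart.

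One array stood apart. Transgenic sham replicate 2 had a median signal of 44.1 on its negative control spots, against 1.68 to 6.53 on the other 11, and only 37.2% of its probes were well above background, against 60.3% to 78.2%. On this array 5 of the 26 mitotic and 7 of the 12 replication genes were above background, so medians and named calls that use the transgenic sham group are given with and without it. The 8 cardiomyocyte markers were above background in every group. The probe for Ppp3cb, the gene of calcineurin A beta, differed between transgenic and wild-type hearts by -0.28 (log2) after sham and by 0.14 after TAC. It is not known here whether this probe covers the transgene, so it checks nothing about the genotype labels.

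The promoters of these genes were searched for the elements named above, which only part of either group carried. RefSeq promoter sequences (build GRCm38.p6) were found for 33 of the 40 genes, 22 mitotic and 11 replication, and the 250 bases before each start were searched on both strands. The CHR element (cell cycle genes homology region), in the form TTTGAA or in the other form of TTCGAA, was present for 10 of the 22 mitotic and 2 of the 11 replication genes, against 17.1% of all 32851 promoters. The NF-Y box, CCAAT, was present for 19 of the 22 mitotic and 7 of the 11 replication genes, against 33.8% of all promoters. The E2F core was searched in 4 forms that differ in the middle, which were TTGGCGC as the first form, then TTCCCGC as the second form, then TTCGCGC as the third and finally TTGCCGC as the fourth, and forms can overlap each other. One or more was present for 3 of the 22 mitotic and 4 of the 11 replication genes, against 7.89%. Shown here are the last 170 bases before the start of 2 mitotic and 2 replication genes, on the gene's own strand, with CHR elements, NF-Y boxes and E2F cores on either strand in capitals. They lie at chr4:118437344-118437513 (Cdc20, minus strand), chr9:70421555-70421724 (Ccnb2, minus strand), chr1:20820313-20820482 (Mcm3, minus strand) and chr1:128359706-128359875 (Mcm6, minus strand).
Cdc20: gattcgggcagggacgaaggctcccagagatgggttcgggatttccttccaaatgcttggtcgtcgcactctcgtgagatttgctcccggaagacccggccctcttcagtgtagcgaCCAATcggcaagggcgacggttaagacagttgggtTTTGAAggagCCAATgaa
Ccnb2: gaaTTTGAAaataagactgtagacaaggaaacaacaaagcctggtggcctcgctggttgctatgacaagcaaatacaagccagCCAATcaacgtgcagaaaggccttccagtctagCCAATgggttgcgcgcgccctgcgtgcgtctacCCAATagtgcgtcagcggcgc
Mcm3: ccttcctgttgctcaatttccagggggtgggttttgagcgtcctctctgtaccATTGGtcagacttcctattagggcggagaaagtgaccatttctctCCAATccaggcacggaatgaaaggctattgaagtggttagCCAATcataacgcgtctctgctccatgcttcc
Mcm6: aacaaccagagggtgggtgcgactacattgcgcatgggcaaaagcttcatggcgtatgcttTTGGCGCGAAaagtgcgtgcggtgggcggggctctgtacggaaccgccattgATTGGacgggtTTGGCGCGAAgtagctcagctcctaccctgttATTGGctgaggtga
In Cdc20 a CHR element begins 18 bases before the start, between NF-Y boxes at 53 and 8 bases. Ccnb2 has NF-Y boxes at 87, 54 and 21 bases and a CHR element at 167. In Mcm6 overlapping pairs of E2F cores lie at 109 and 106 and at 46 and 43 bases, while the window of Mcm3 holds none of the forms searched. Both Mcm promoters carry NF-Y boxes, at 117, 72 and 32 bases in Mcm3 and at 57 and 14 in Mcm6. A match in letters is a description of the sequence and not evidence that a factor binds there.

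In wild-type hearts TAC was followed by higher levels of most mitotic genes and of part of the replication genes. At an adjusted p under 0.05 (limma, Benjamini-Hochberg over all 25321 genes, two-sided), 21 of the 38 genes measured rose and 1, Cenpf, was lower. Of all genes tested 21.2% passed, 8.7% higher and 12.5% lower. Cenpf passed the filter only through wild-type sham, where it is high, so its call is counted but not read as a result. Of the mitotic genes 16 of 26 rose, with a median log2 difference of 1.58 over the 26. That median was 1.01 with normexp background correction and 1.03 with the slide as a fixed block. Normexp started from each spot's median signal and local background and added an offset of 50. By construction this offset shrinks differences between dim signals. The mitotic median was 0.70 with a common floor of -1.92 under dim signals, over only the genes with a signal above the floor. This floor is the lowest signal well above background on transgenic sham replicate 2, the high-background array, and every lower signal was raised to it. The wild-type sham means of genes such as Mki67 (-2.30) and Birc5 (-2.70) lie below it, so the floor shrinks their rise by construction. Of the replication genes 5 of 12 rose, with a median of 0.67, against a median of -0.13 over all genes tested. In 27 of the 38 genes all 3 TAC arrays lay above all 3 sham arrays, a separation seen in 17.5% of all genes, and in 3 all lay below, against 29.4%.

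**Figure D1:**
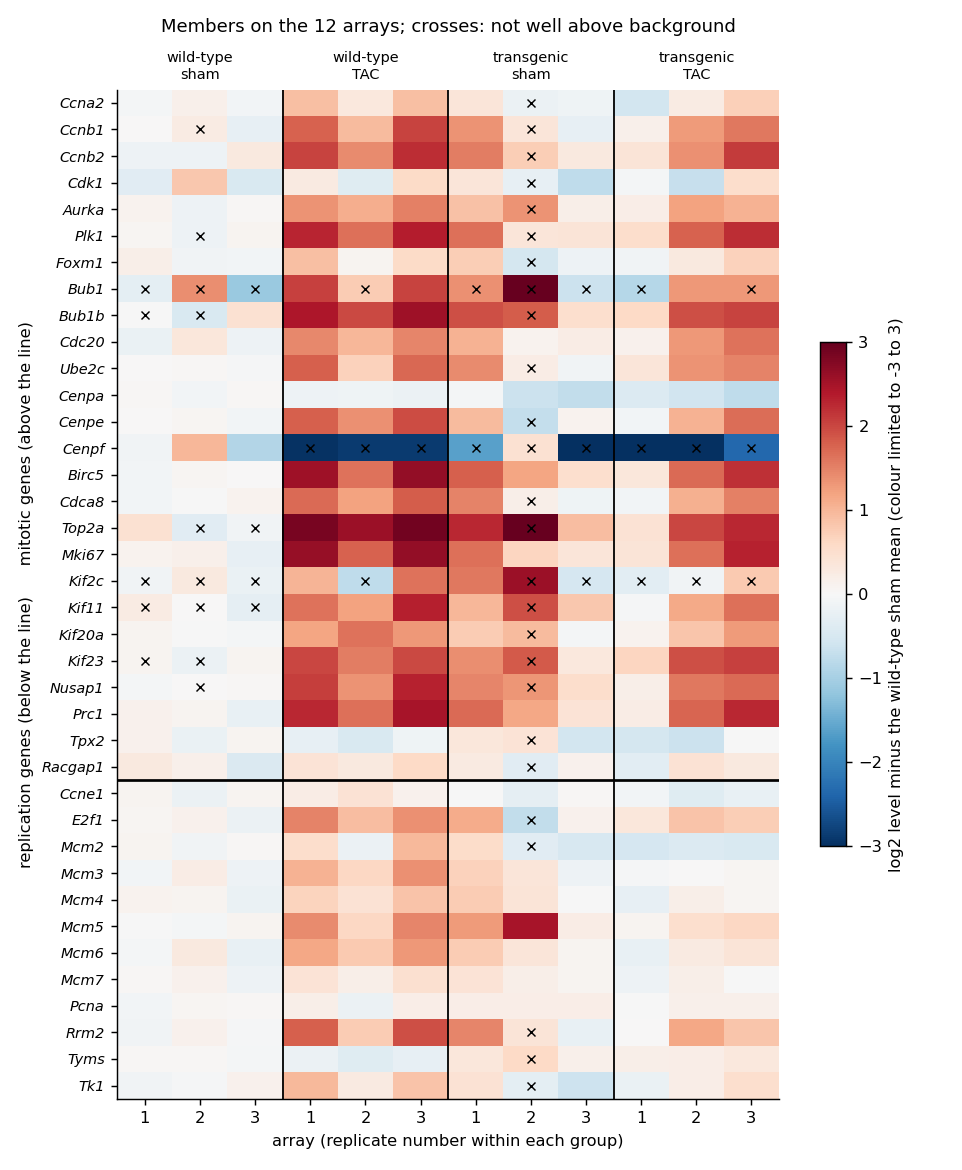
Log2 level of each of the 38 measured genes (rows, mitotic above the line, replication below) on the 12 arrays (columns), minus the gene's wild-type sham mean; colours are limited to -3 to 3 and crosses mark probes not well above background on that array. The wild-type TAC arrays are red for most mitotic rows and for part of the replication rows, and transgenic sham replicate 2 carries crosses in most mitotic rows.

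Levels are given as log2 signal relative to the array's 75th percentile, and a step of 1 is a doubling. Mki67, the proliferation antigen Ki-67 that coats mitotic chromosomes, read -2.20, -2.14 and -2.56 on the wild-type sham arrays and 0.32, -0.52 and 0.34 after TAC. The TAC arrays were all higher, and the lowest was replicate 2. The log2 difference was 2.35 ± 0.49 (SE; adjusted p = 0.0095), and a second probe of the gene gave 2.47.

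Among the kinases, cyclins and their activator 4 of 7 measured genes rose. Plk1, the polo-like kinase of mitotic entry and spindle assembly, read -4.09, -4.29 and -4.05 in sham and -1.87, -2.50 and -1.79 after TAC. It rose by 2.09 ± 0.46 (adjusted p = 0.011), with no overlap between the groups. Ccnb2, a B-type cyclin that activates Cdk1, read -2.84, -2.85 and -2.40 in sham and -0.67, -1.28 and -0.49 after TAC, again without overlap, and rose by 1.88 ± 0.44. Ccnb1, the other B-type cyclin measured, rose by 1.58 ± 0.47, and the centrosomal kinase Aurka by 1.32 ± 0.32. A pair of further Ccnb1 probes gave 0.68 and 0.86 and did not pass. Ccna2, the cyclin of S phase and G2, differed by 0.70 ± 0.30 and the transcription factor Foxm1 by 0.52 ± 0.34, and neither passed.

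Cdk1, the kinase that the B-type cyclins activate, depended on the probe. Its brightest probe read -4.20, -3.07 and -4.33 in sham and -3.61, -4.23 and -3.29 after TAC. These groups overlapped, and the difference was 0.16 ± 0.44 (adjusted p = 0.85). The gene's dimmer probe, above background on 7 of the 12 arrays, was higher by 3.39 ± 0.71 (adjusted p = 0.0098 over the 30358 probes tested). Tpx2, which activates Aurka on the spindle, disagreed in the same way, with -0.29 ± 0.26 on the brightest probe and 2.77 ± 0.48 (adjusted p = 0.0049) on the other. With the mean over its probes, the difference of Tpx2 was 1.24. Which probe follows the main transcript of these genes was not tested.

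Of the checkpoint and anaphase genes 2 of 4 rose. Bub1b, the checkpoint protein BubR1, read -5.90, -6.36 and -5.44 in sham, below background on 2 of the 3 arrays, and -3.47, -3.93 and -3.37 after TAC. It rose by 2.31 ± 0.47 (adjusted p = 0.0084). Cdc20, which activates the anaphase-promoting complex, rose by 1.30 ± 0.39 from -2.11, -1.57 and -2.08 to -0.46, -0.92 and -0.45. Ube2c, the ubiquitin-conjugating enzyme of that complex, was higher by 1.40 ± 0.45 with no overlap but missed the threshold (adjusted p = 0.0503), while its second probe passed with 1.65 ± 0.47 (adjusted p = 0.034). Bub1, the checkpoint kinase, was above background on only 3 of the 12 arrays. Its wild-type sham arrays were all at background, which gives a difference of at least 1.09-fold, and the fitted 1.62 ± 0.98 did not pass.

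The genes of the centromere, chromosomes and spindle gave the highest median of the role groups, 1.71, with 10 of 15 rising. Top2a, the topoisomerase that untangles sister chromatids, read -5.39, -6.19 and -5.95 in sham and -2.99, -3.28 and -2.95 after TAC, and rose by 2.77 ± 0.72 (adjusted p = 0.024). Birc5, survivin of the chromosomal passenger complex, read -2.78, -2.63 and -2.68 in sham and -0.15, -1.06 and -0.05 after TAC, and rose by 2.28 ± 0.48 (adjusted p = 0.010). Neither gene's groups overlapped, and 2 further probes of Birc5 gave 1.83 and 2.62. Prc1, which bundles the microtubules of the spindle midzone, rose by 2.13 ± 0.49, Nusap1 by 1.91 ± 0.41, the cytokinesis motor Kif23 by 1.83 ± 0.43 and the centromere motor Cenpe by 1.71 ± 0.47. Cdca8, borealin of the passenger complex, rose by 1.57 ± 0.46 and the motor Kif20a by 1.37 ± 0.32. The spindle motor Kif11 was at background on all 3 sham arrays and rose by at least 1.99-fold (fitted 1.72 ± 0.46).

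Cenpf, a kinetochore protein of G2 and M, was the single member with a lower level past the threshold. Its probe read -4.64, -3.53 and -5.42 in wild-type sham hearts and was at background on the other 9 arrays. It passed the filter on low signals only through that group, in which it is high, so the difference of at least 3.32-fold is a description and no p-value is given for it. With normexp background correction the fitted difference turned from -2.91 to 0.22. The histone variant gene Cenpa (-0.15 ± 0.17) and Racgap1 of the midzone (0.44 ± 0.26) did not pass. The microtubule depolymerase Kif2c was above background on 3 of the 12 arrays and on none of the wild-type sham arrays. It did not pass, and its signal after TAC was too low to give a bound on the fold.

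The replication genes moved less evenly. E2f1, an E2F factor of the G1 to S transition, read -3.32, -3.25 and -3.54 in sham and -1.88, -2.45 and -2.01 after TAC, and rose by 1.26 ± 0.38 without overlap (adjusted p = 0.043). Ccne1, the cyclin of the same transition, differed by 0.26 ± 0.14 and did not pass. The 6 Mcm genes encode the subunits of the replicative helicase, and 3 of them rose. Mcm6 read 0.59, 0.96 and 0.44 in sham and 1.83, 1.45 and 1.96 after TAC, a rise of 1.08 ± 0.23 (adjusted p = 0.011). Mcm3 read -1.03, -0.72 and -1.09 in sham and 0.09, -0.33 and 0.42 after TAC, a rise of 1.01 ± 0.24 (adjusted p = 0.015), and Mcm4 rose by 0.65 ± 0.21 (adjusted p = 0.049). In all 3 genes the TAC arrays lay above the sham arrays. Mcm5 differed by 1.17 ± 0.47, Mcm2 by 0.43 ± 0.31 and Mcm7 by 0.35 ± 0.14, and none of these passed. Without transgenic sham replicate 2, where Mcm5 read 0.22 against -0.98 and -2.03 on the other arrays of its group, Mcm5 passed in wild-type hearts (adjusted p = 0.025).

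Pcna, the sliding clamp of the DNA polymerases, read 1.80, 1.95 and 1.93 in sham and 2.06, 1.72 and 2.10 after TAC. Its groups overlapped and the difference was 0.07 ± 0.12. Of the nucleotide synthesis genes, Rrm2, the regulated subunit of ribonucleotide reductase, rose by 1.49 ± 0.46 (adjusted p = 0.043) from -2.16, -1.92 and -2.08 to -0.26, -1.28 and -0.13. Tyms, thymidylate synthase, was lower on all 3 TAC arrays (-0.26 ± 0.13) and the thymidine kinase gene Tk1 higher on all 3 (0.70 ± 0.29), and neither passed.

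Set side by side, the mitotic genes differed more than the replication genes after TAC in wild-type hearts, with a distance of 0.90 (log2) between their medians. The distance was 0.36 with normexp background correction and 1.48 over the genes above background on all 12 arrays. It was 0.22 with the common floor, which by construction shrinks differences that start below it. The normexp offset of 50 also shrinks differences between dim signals. Each array's mean over the genes of a group, relative to the wild-type sham mean, was -0.13 to 0.11 in sham for the mitotic and -0.05 to 0.06 for the replication genes. After TAC the mitotic means were 1.38, 0.83 and 1.51 and the replication means 0.81, 0.36 and 0.89. On all 3 TAC arrays the mitotic mean was the higher, by 0.57, 0.47 and 0.62. Restricted to the 12 genes above background on every array, 5 mitotic and 7 replication, the group means after TAC were 1.58 ± 0.34 and 0.66 ± 0.22 (SD, n = 3). No p-value is given for these means, since the genes were chosen as a list.

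**Figure D2:**
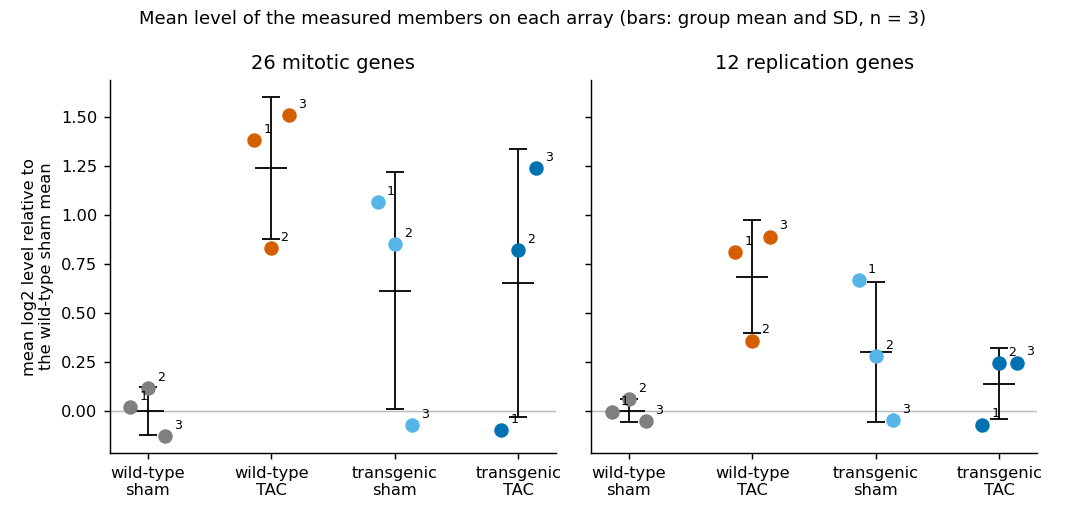
Mean log2 level over the 26 mitotic genes (left) and the 12 replication genes (right) on each array, relative to the wild-type sham mean; points are arrays labelled by replicate number and bars are group mean and SD (n = 3). All 3 wild-type TAC arrays lie above the wild-type sham arrays in both panels, and each transgenic group has 1 array near 0 in the left panel.

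The number of calls moved with single arrays and with the slide on which arrays were hybridised. The 22 calls, Cenpf included, became 10 without any 1 of wild-type sham replicates 1, 2 and 3 or wild-type TAC replicate 1. Without wild-type TAC replicate 3 they became 7. Over all genes the calls, 5377 in the main fit, also moved, from 2813 to 6207 when 1 array was left out. Plk1, Bub1b, Birc5, Mki67, Kif20a, Nusap1 and Mcm6 passed in all 12 settings that leave out 1 array. With the slide as a fixed block in limma 0 of the 38 genes passed, where 524 of all genes did. Slides 3 and 5 held 1 array each, transgenic sham replicate 3 and wild-type sham replicate 3. The fixed block fits these arrays fully and leaves fewer residual degrees of freedom. A call lost under this block cannot be told apart from lost power. At an unadjusted p under 0.05 there were 15 of the 38 with this block, for which the count over all genes was not made. Without the block there were 27 of the 38 and 8594 of all 25321 genes. With the slide as a random block 16 members passed, and the count over all genes for that block is not given here. Wild-type TAC replicates 1 and 3 lay on slide 1, which held no wild-type sham array. For these arrays TAC and slide cannot be told apart. On slide 2, which held wild-type TAC replicate 2 and wild-type sham replicates 1 and 2, the median difference was 1.09 over the mitotic genes, positive in 21 of 26, and 0.40 over the replication genes, positive in 9 of 12.

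Markers of some cells that can divide, such as fibroblasts, were also higher in the wild-type TAC hearts, while T and NK cell markers were lower in sum. Of 8 fibroblast markers 7 rose, and their summed linear level relative to the 75th percentile was 91.6 to 145 in wild-type sham, 296 to 437 in wild-type TAC, 150 to 167 in transgenic sham and 141 to 174 in transgenic TAC hearts. Activated fibroblast markers rose in 4 of 5, endothelial markers in 4 of 8 with 1 falling, macrophage and monocyte markers in 3 of 9, and smooth muscle markers in 2 of 4. Over all genes tested 8.7% rose and 12.5% fell in this comparison. The activated fibroblast sum was 14.1 to 15.2 after sham surgery and 32.9 to 64.9 after TAC in wild-type mice. Transgenic arrays gave 32.7 to 50.5 without banding and 20.7 to 35.3 with it, and both ranges overlapped that of banded wild-type hearts. Mean log2 levels over these 5 markers, relative to the wild-type sham mean, did not overlap. Banded wild-type arrays had 2.19 to 3.79, and the highest transgenic array had 1.25. No T and NK cell, B cell or neutrophil marker rose. The summed T and NK cell level was 10.4 to 11.8 in wild-type sham and 6.63 to 7.22 in wild-type TAC hearts. Of 8 cardiomyocyte markers 5 fell and 1 rose. The part of these markers in the cell cycle results was not tested.

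In transgenic hearts no member passed between TAC and sham, as no gene did among the 25321 tested (limma; 0% of all genes). At an unadjusted p under 0.05 there were 0 of the 38 members and 1575 of all genes. The mitotic median was 0.16 and the replication median -0.18, and no member had all TAC arrays above all sham arrays (4.53% of all genes). Pcna alone had all TAC arrays below, with a difference of -0.11 ± 0.12 (3.93% of all genes). All 7 helicase and clamp estimates were negative, from -0.93 for Mcm5 to -0.11 for Pcna. Without the high-background array the medians were 0.24 and -0.24, and the estimate of Mcm5 was -0.35. The mitotic median turned to -0.08 without transgenic sham replicate 3 and to -0.09 without transgenic TAC replicate 3, and was 0.39 without transgenic sham replicate 1 and 0.52 without transgenic TAC replicate 1.

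The arrays within each transgenic group differed widely. In transgenic sham the mitotic means were 1.06, 0.85 and -0.07, the second from the high-background array, and in transgenic TAC they were -0.10, 0.82 and 1.24. The replication means were 0.67, 0.28 and -0.05 in sham and -0.07, 0.24 and 0.25 after TAC. Mki67 read -0.65, -1.66 and -1.94 in transgenic sham and -1.92, -0.64 and 0.00 after TAC. Plk1 read -2.49, -3.79 and -3.75 in sham and -3.63, -2.37 and -1.93 after TAC. In both genes the groups overlapped, with 1 low TAC array and 1 high sham array, and the differences were 0.56 ± 0.49 and 0.70 ± 0.46.

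Slide 4 held both transgenic TAC replicate 1, with a mitotic mean of -0.10, and replicate 2, with 0.82. Slide 1 held wild-type TAC replicates 1 and 3, transgenic sham replicate 1 and transgenic TAC replicate 3, and these were the 4 arrays with the highest mitotic means, 1.06 to 1.51. On that slide the single transgenic TAC array exceeded the single transgenic sham array by a median of 0.20 over the mitotic genes, positive in 20 of 26. Over the replication genes the median difference was -0.40, and 1 of 12 was positive.

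**Figure D3:**
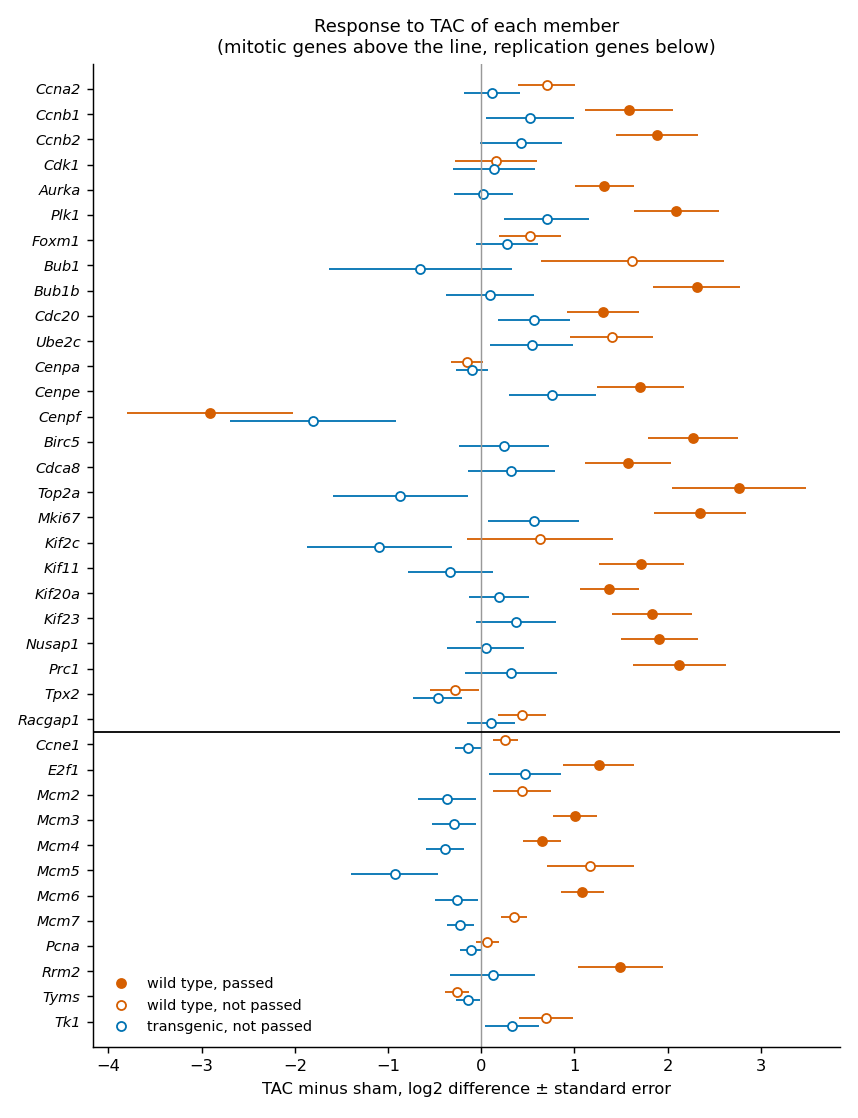
Log2 difference of TAC against sham with its standard error for each measured gene in wild-type (orange) and transgenic (blue) hearts, mitotic genes above the line and replication genes below; filled points passed an adjusted p of 0.05. Filled points occur only in wild type, and all 7 transgenic points from Mcm2 to Pcna lie below 0.

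Between sham-operated hearts of the 2 genotypes no member passed in limma, where 1.44% of all genes passed. At an unadjusted p under 0.05 there were 10 of the 38 members and 4424 of all 25321 genes. Without transgenic sham replicate 1 Cenpa passed, with a difference of -0.69 (adjusted p = 0.028). The mitotic median was 0.67 and the replication median 0.26, and without the high-background array they were 0.59 and 0.26. In 13 of 38 genes all 3 transgenic arrays lay above all wild-type arrays, against 8.09% of all genes, and in none below. Of these genes Aurka, Plk1, Bub1b, Top2a, Kif11, Kif23, Nusap1 and Tyms were not above background on the high-background array, transgenic sham replicate 2. Their readings on it can reflect its raised background, and the count was not repeated without it. Top2a gave the largest estimate between the sham groups, 2.43 ± 0.72, which was 1.59 without the high-background array on which it was not above background. Bub1b differed by 1.42 ± 0.47, Birc5 by 1.16 ± 0.48 and Mki67 by 0.88 ± 0.49, with adjusted p of 0.17, 0.25 and 0.39. Without that array the differences were 1.22, 1.15 and 1.01, in the same order, and Bub1b too was not above background on it.

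After TAC 1 member, the replication gene Mcm3, passed between the genotypes. Mcm3, at -0.98, -0.92 and -0.89 in transgenic and 0.09, -0.33 and 0.42 in wild-type TAC hearts, had a difference of -0.99 ± 0.24 (adjusted p = 0.049), where 4% of all genes passed, 2.14% higher and 1.86% lower. Mcm6 read 0.44, 0.92 and 1.05 against 1.83, 1.45 and 1.96, a difference of -0.94 ± 0.23 that missed the threshold (adjusted p = 0.055). Of the 12 replication genes 7 had all transgenic arrays below all wild-type arrays, namely Ccne1, E2f1, Mcm2, Mcm3, Mcm4, Mcm5 and Mcm6, and of the 26 mitotic genes 2 did, Cenpa and Top2a, where 13.7% of all genes did. The medians were -0.58 for the mitotic and -0.64 for the replication genes. Leaving out 1 array moved the mitotic median between -0.93, without transgenic TAC replicate 3, and -0.23, without transgenic TAC replicate 1, and the replication median between -0.78 and -0.52. The mitotic means spread from -0.10 to 1.24 over the transgenic TAC arrays and the replication means from -0.07 to 0.25. Tyms had all transgenic arrays above, by 0.49 ± 0.13 (adjusted p = 0.064), and passed without transgenic sham replicate 2 (adjusted p = 0.040). Mcm3 kept its call without transgenic sham replicate 1 or 3 or wild-type TAC replicate 2 and lost it without any other single array, with adjusted p of 0.056 to 0.18. Its call was also lost with the slide as a fixed block (-1.11, adjusted p = 0.20) or a random block (-0.96, adjusted p = 0.054). On slide 1 the transgenic TAC array differed from the 2 wild-type TAC arrays by a median of -0.23 over the mitotic genes, positive in 6 of 26, and of -0.69 over the replication genes, positive in 1 of 12.

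The difference between the responses to TAC in the 2 genotypes was tested as an interaction. Mcm6 (-1.35 ± 0.33, adjusted p = 0.042) and Mcm3 (-1.30 ± 0.33, adjusted p = 0.047) passed, 2 of 38, where 7.08% of all genes passed, 4.18% with a positive and 2.9% with a negative difference. Mcm6 rose by 1.08 in wild-type hearts and differed by -0.26 in transgenic hearts, and Mcm3 by 1.01 and -0.29. The median interaction was -1.27 over the mitotic and -0.79 over the replication genes, and no mitotic gene passed. Without transgenic sham replicate 2 these medians were -1.13 and -0.98, and with the common floor -0.52 and -0.51. Top2a had the largest estimate, -3.63 ± 1.02 (adjusted p = 0.060), which was -2.79 without that array. Both calls were lost without transgenic sham replicate 2 (adjusted p = 0.071 and 0.087), where the estimates were -1.37 and -1.26. With 1 array left out, 2 members passed without wild-type TAC replicate 2, 7 without transgenic sham replicate 3 and 0 without any other array. Over all genes the calls, 1793 in the main fit, ranged from 141 to 2357 in these settings. With the slide as a fixed block in limma 0 of the 38 members and 0 of all genes passed, with estimates of -1.08 for Mcm6 and -1.33 for Mcm3. At an unadjusted p under 0.05 there were 9 of the 38 with this block, for which the count over all genes was not made. Without the block there were 16 of the 38 and 6466 of all 25321 genes. With the slide as a random block both passed. No slide held all 4 groups. The comparisons share groups of arrays, so their values are not independent of each other.

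Other genes of the pathway, from lists of related names chosen with results of these data known, were counted in the same way, against the 8.7% of all genes that rose and the 12.5% that fell. Of 38 measured further genes of mitosis and cytokinesis, 19 rose and 2 fell in wild-type hearts after TAC, with a median of 1.37. Cdca3, a trigger of mitotic entry, rose by 2.55 ± 0.50 and the condensin subunit gene Ncaph by 1.49 ± 0.28. The securin gene Pttg1 fell by 0.78 (SE 0.11) and the kinetochore gene Spc24 by 1.20 (SE 0.23). Of 42 further genes of the replication fork and origins, 5 rose and 4 fell, with a median of 0.10, shares near those of all genes. Dbf4, the activator of the origin-firing kinase Cdc7, rose by 1.68 ± 0.30 and the primase subunit Prim1 by 1.00 ± 0.21, while the polymerase delta subunit Pold2 fell by 0.65 (SE 0.11) and the dUTPase gene Dut by 0.94 (SE 0.16).

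Regulators of G1 and of cell cycle exit were measured as well. Of 7 G1 cyclins and kinases Ccnd1, cyclin D1, rose in wild-type TAC hearts by 0.51 ± 0.16. Ccnd2, cyclin D2, read 2.67, 2.55 and 2.69 in wild-type sham and 3.62, 3.87 and 4.21 in transgenic sham hearts, with no overlap, and was higher by 1.26 ± 0.22 (adjusted p = 0.027). Without transgenic sham replicate 2 the difference was 1.27 and missed the threshold (adjusted p = 0.080), as it did with the slide as a fixed block (0.98, adjusted p = 0.18). Of 16 E2F and pocket protein family genes E2f3 rose by 0.77 ± 0.17 and Lin52, a subunit of the complex that holds cell cycle genes off or on, fell by 0.78 (SE 0.24). After TAC, Lin52 was higher in transgenic than in wild-type hearts by 1.53 ± 0.24. In wild-type hearts 4 of 14 inhibitors and exit genes rose after TAC, with a median of 0.41. Cdkn2b, the CDK4/6 inhibitor p15, read -4.33, -4.58 and -4.50 in sham and -1.92, -2.96 and -0.82 after TAC, and rose by 2.57 ± 0.42 (adjusted p = 0.0038). Cdkn2a was at background in sham and rose by at least 2.94-fold, Pkmyt1, an inhibitory kinase of Cdk1, by 0.84 ± 0.16 and Btg1 by 0.66 ± 0.17. After TAC, Pkmyt1 was lower in transgenic than in wild-type hearts, with a difference of -0.87 ± 0.16. None of these lists had a call between TAC and sham in transgenic hearts.

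**Figure D4:**
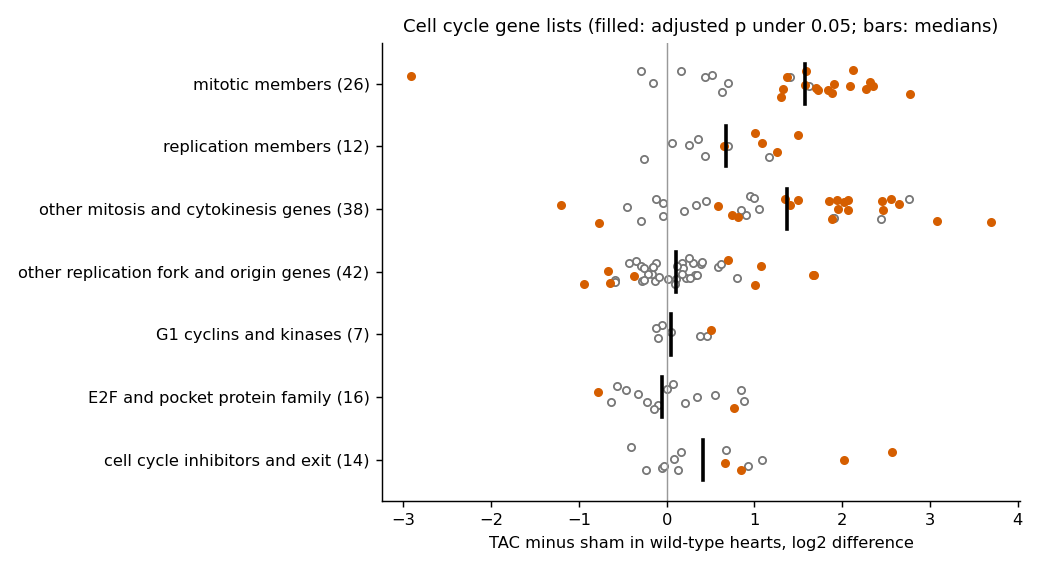
Log2 difference of TAC against sham in wild-type hearts for each measured gene of the 2 groups of members and of 5 further lists (number of genes in brackets); filled points passed an adjusted p of 0.05 and bars are medians. The 2 mitotic rows centre at 1.58 and 1.37, the replication members at 0.67 and the further replication genes at 0.10.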

How the data were processed

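Each array was an Agilent single-colour array. The scanner output holds intensity values that Feature Extraction 10.7.3.1 wrote, per the file headers, already background-subtracted. The authors also deposited a table of log2 values, centred on each probe's median, which correlated with the scanner values of its array above 0.999 and was used as an alternative; the submitters' processing notes name RMA. The array design's headers name build mm9.

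From the processed intensities, control and outlier spots were dropped, log2 was taken and each array's 75th percentile subtracted. Spots of a probe were averaged, probes were named by RefSeq accession (26424 of 39429), and those well above background on at least 3 arrays were kept, with the brightest probe per gene. A mean per group was fitted with limma 3.58.1 (R 4.3.3) over all 12 arrays with 8 residual degrees of freedom, with Benjamini-Hochberg adjustment over 25321 genes and a threshold of 0.05, two-sided. ± after a log2 difference is its standard error. Where all arrays of 1 group were not above background, the difference is a lower bound, "at least N-fold", from the mean of the brighter group over the higher of the dim probe's own signal and the lowest signal well above background. The arrays lay on 5 slides, and slides 3 and 5 held 1 array each. The fixed slide block therefore leaves fewer than 8 residual degrees of freedom in every comparison. The number of arrays limits the precision, and in a test on simulated data of the wild-type comparison 38% of 100 genes changed by 1 and 76% of 100 changed by 2 (log2) were recovered among 25321 genes, with 4 false calls. Only these genes were changed there, with independent noise and no slide or background effects, whereas 21.2% of all genes passed in the data. The simulated shares therefore check the code and do not give the recovery in the data.

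The members, the related gene lists and the marker lists were chosen with earlier results of these data known, so a list's direction is not independent evidence. All members are named, and of each related list at most 4 genes with the smallest p. The time label reads 0 for sham arrays while their source names give 21 days. Cell type markers without a matched probe were not used. Alternatives changed the scaling, background correction, filter, probe choice, variance model, replicate block, slide and each array in turn, and 2 (a common floor and outlier spots kept) were added after seeing the data.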

Additional observations from a re-analysis of the deposited data

Results flagged for a closer look

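The response to TAC differed between wild-type and transgenic hearts by the interaction term for 12 of the members and related genes measured (limma, adjusted p under 0.05 over all genes tested). Each is given here as the transgenic minus the wild-type response on the log2 scale. The 12 came from 38 members and from lists of 38 further mitotic, 42 further replication, 7 G1 and 16 E2F family genes, besides the inhibitors. Over all genes tested 7.08% passed this term, so the count is close to the share over all genes. Among the members, Mcm3 had -1.30 ± 0.33 and Mcm6 -1.35 ± 0.33. Among further replication genes, Dbf4 had -2.00 ± 0.42, Prim1 -1.41 ± 0.30, the clamp loader subunit Rfc5 -0.64 ± 0.16 and Dut 1.00 ± 0.23. Dut fell by 0.94 in wild-type hearts and differed by 0.06 in transgenic hearts, and Dbf4 rose by 1.68 and differed by -0.32. Among further mitotic genes, Ncaph had -1.55 ± 0.40, Spc24 1.79 ± 0.33 and Pttg1 0.83 ± 0.15. Pttg1 read 5.11, 5.10 and 5.10 in wild-type sham, 4.37, 4.42 and 4.19 in wild-type TAC, 4.66, 4.56 and 4.84 in transgenic sham and 4.82, 4.67 and 4.72 in transgenic TAC hearts, so the transgenic groups overlapped and the wild-type groups did not. Among the regulators, the differences were -0.86 ± 0.23 for Ccnd1, -0.93 ± 0.24 for E2f3 and -1.18 ± 0.22 for Pkmyt1. Without the high-background array, transgenic sham replicate 2, 6 of the 12 passed, namely Dbf4, Pkmyt1, Prim1, Pttg1, Rfc5 and Spc24. With the slide as a fixed block 0 of the 12 passed (adjusted p of 0.16 to 0.28), and with the slide as a random block 10 did, all but E2f3 and Ncaph. With the replicate number as a block 3 of the 12 passed, namely Pkmyt1, Pttg1 and Spc24. The part of the fibroblast marker level in these differences was not tested. Groups of 3 arrays were not examined for single deviating values.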

How the results depend on the processing

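The 22 calls in wild-type hearts after TAC, Cenpf included, became 3 with normexp background correction and 14 with a common floor. They became 8 with only probes above background on all 12 arrays and 0 with the slide as a fixed block. Leaving out 1 array gave 7 to 23. In transgenic hearts TAC against sham gave 0 member calls under every alternative run. Between sham groups there were 0, or 0 to 1 when 1 array was left out. For the genotypes after TAC the single call became 0 with median scaling, normexp, no filter, the mean over probes, only the groups compared or the slide as a fixed or random block, 2 with a trended robust variance and 4 with the all-array filter or the common floor, and 0 to 3 without 1 array. The 2 interaction calls became 0 with quantile normalization, normexp, no filter or the slide as a fixed block, 5 with the trended variance, 6 with the all-array filter and 4 with the common floor, and 0 to 7 without 1 array. The distance of 0.90 between the mitotic and replication medians in wild-type hearts was 0.36 with normexp, 1.48 with the all-array filter and 0.22 with the common floor, which leaves 14 mitotic and 12 replication genes; it was 0.77 to 0.98 without 1 array. Cenpf turned to 0.22 with normexp and Tpx2 to 1.24 with the mean over probes. The causes were not tested. The all-array filter and the floor leave fewer dim genes, and the floor also raises every signal below -1.92 to that value, which shrinks differences. Normexp added an offset of 50 to every signal, which likewise shrinks differences between dim signals.

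The replicate numbers do not pair the arrays: same-numbered arrays of different groups had correlations of -0.39 to 0.22 in their deviations, above 0.1 in 4 of 18 pairs. With the replicate block there were 15 member calls for TAC in wild-type hearts and 0 member calls in the other 4 comparisons. The distance between the medians was 0.90.

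Signal over background limits the dim members. Of the 38 measured genes 12 were above background on all arrays, and fitted differences of Bub1, Kif2c, Kif11 and Cenpf rest on groups at background. Over all genes the count of calls for TAC in wild-type hearts ranged from 524 to 6207. It ranged from 32 to 2738 for the genotypes after TAC and from 0 to 3492 for the interaction.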
